A study of Rattus norvegicus with 102 samples.

Results

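The 8 genes that encode the pore-forming alpha-1 subunits of the voltage-gated calcium channels of neurons (Cacna1a, Cacna1b, Cacna1c, Cacna1d, Cacna1e, Cacna1g, Cacna1h and Cacna1i) were examined in the CA1, CA3 and dentate gyrus (DG) of young and aged rats. They were found by their gene symbols and made up 8 of the 26284 genes listed for Illumina sequencing and 8 of the 26341 listed for Ion Proton sequencing. Each symbol had 1 row in each table, and no library had a value of 0 for any of them. All 8 passed the floor for testing, a mean normalised read count of at least 10. The animals were male Fischer 344 rats, spelled Fisher 344 in the labels. They formed 3 groups: 10 young (5 to 6 months, Y), 12 aged and unimpaired in memory (OG) and 12 aged and impaired (OB). Both aged groups were between 17 and 22 months old. The labels gave no allele and no agent for any group. Aged rats had been divided by a probe trial of the Morris water maze, a test of spatial memory in which the time spent in the goal quadrant is scored after the platform has been removed. Tissue was dissected by hand from 1 hippocampus of each rat, so that a library holds neurons, glia and vessels of a subfield, and each rat gave 1 library per subfield (34 per subfield).

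Voltage-gated calcium channels open upon depolarization and couple electrical activity to transmitter release, firing and transcription. The alpha-1 subunit forms the pore and sets the channel type. Cacna1c and Cacna1d encode L-type channels, which lie on the soma and dendrites and signal to the nucleus. Cacna1a encodes P/Q-type channels, Cacna1b N-type channels and Cacna1e R-type channels, and the P/Q-type and N-type channels are the main triggers of transmitter release at central synapses. Cacna1g, Cacna1h and Cacna1i encode T-type channels, which open near the resting potential and support burst firing. L-type channels of CA1 pyramidal neurons are a long-standing subject in aging research, because the calcium-dependent potential that follows a burst of spikes grows with age in these cells.

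Values are normalised read counts, that is reads per gene divided by a size factor of the library, and levels are compared between libraries of the same gene and not between genes. Illumina libraries held 3.25 to 42.8 M reads on genes (median 10.7 M) and Ion Proton libraries 4.47 to 21.4 M (median 9.74 M). The marker genes of CA1 pyramidal cells were higher in CA1 than in CA3 for 6 of 6 tested, and those of dentate granule cells were lower in both other subfields than in DG for 6 of 6. The list for CA3 pyramidal cells set CA3 apart less well: 5 of 7 were lower in CA1 than in CA3, but for CA3 minus DG 1 of 7 was called higher and 2 lower (median log2 difference -0.19). Dentate markers were also higher in CA1 than in CA3 for 5 of 6. Of all genes, 14.1% were called for CA1 minus CA3, 26.4% for CA1 minus DG and 27.9% for CA3 minus DG. The study had shown some of these markers with its subfield-specific genes from the same data. These were Wfs1, Ndst4 and Gpr161 for CA1, Nnat for CA3, and Dsp, C1ql2 and Plk5 for DG. The agreement of such counts with the labels was thus partly fixed in advance and is no test of the dissection. In 11 libraries, however, the marker scores lay nearest to a subfield other than the labelled one in both tables (7 labelled CA3, 3 DG and 1 CA1). Such libraries were found in 10 animals. Of the 16 rats with a number of 9000 or more 8 had such a library, and of the 18 with a lower number 2 did. The rats had been studied at 2 sites, and the labels did not name the site of a rat, so the number series is given here only as what it is. Each group was spread over both series, with 5 young, 6 unimpaired and 7 impaired rats numbered below 9000. Results are therefore given over all libraries, without the 11 libraries and within each number series.

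**Figure D1:**
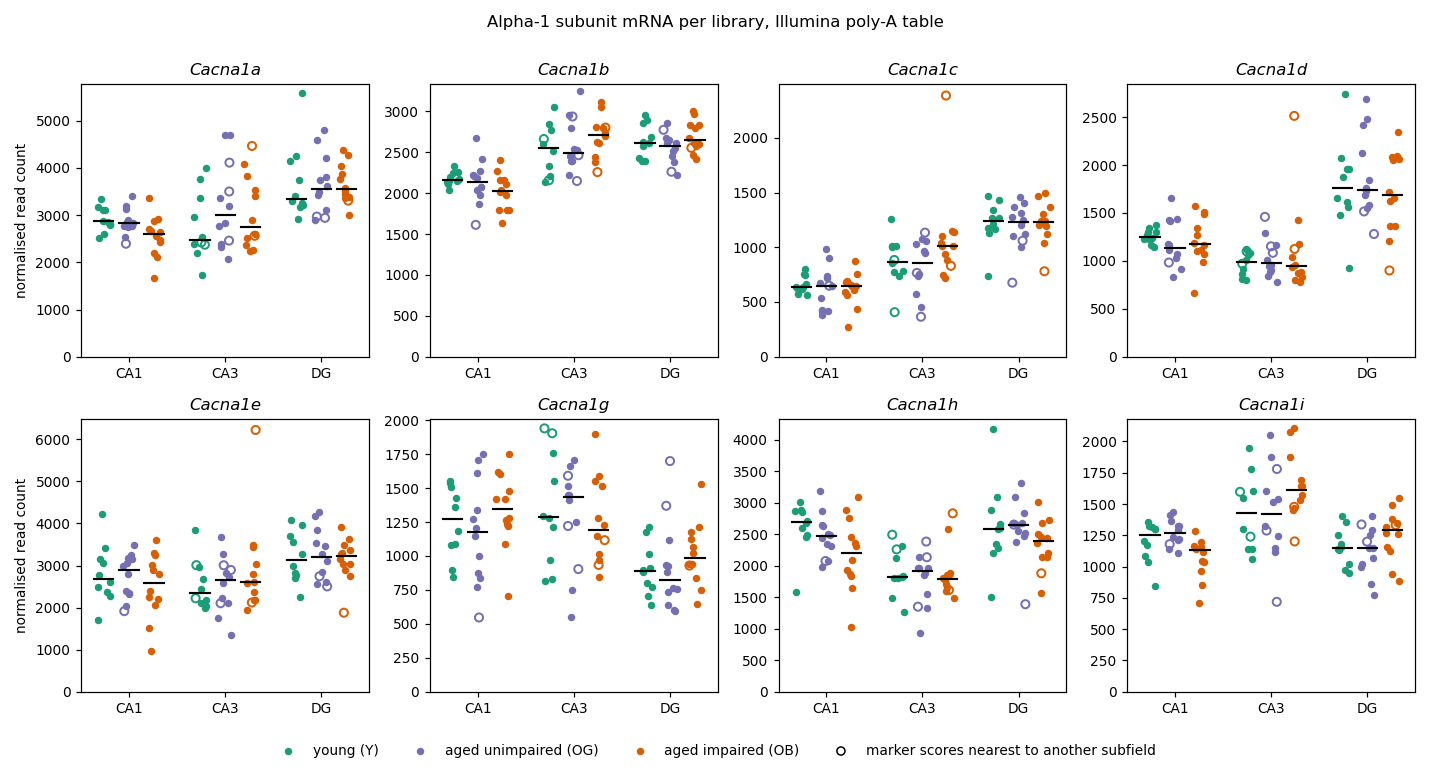
Normalised read counts of each alpha-1 gene in the Illumina table, 1 point per library, by subfield and group (10 young, 12 unimpaired and 12 impaired rats); black bars are medians and open circles mark the 11 libraries with markers nearest to another subfield. Cacna1c is lowest in CA1 and highest in DG in all 3 groups, while the groups of a subfield overlap for every gene.

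The subfields differed in most of these genes. Calls required an adjusted p under 0.05 (limma, Benjamini-Hochberg over all genes tested) and 1 direction in both the Illumina and the Ion Proton table. Between CA1 and CA3, 4 of 8 were called, 2 higher and 2 lower in CA1, against 14.1% of all 14179 genes tested (7.12% higher and 6.95% lower). Between CA1 and DG, 5 of 8 were called, 1 higher and 4 lower in CA1, against 26.4% of all genes (13.1% higher and 13.2% lower). Between CA3 and DG, 7 of 8 were called, 2 higher and 5 lower in CA3, against 27.9% (13.9% higher and 14.0% lower). The median log2 difference of the 8 genes was -0.07 for CA1 minus CA3, -0.30 for CA1 minus DG and -0.30 for CA3 minus DG, while the median over all genes lay within 0.01 of 0 in each. In bulk tissue, fewer cells of a type and less RNA per cell cannot be told apart. Of the markers common to neurons, 5 of 7 were lower in CA1 than in CA3 (1 was higher), 4 of 7 lower in CA1 than in DG and 1 of 7 lower in CA3 than in DG (median log2 difference -0.06). Oligodendrocyte markers were higher in CA1 and in CA3 than in DG for 6 of 6 (median log2 differences 0.69 and 0.85). Interneuron markers were called higher in CA1 and in CA3 than in DG for 3 of 7 (medians 0.31 and 0.39 over the list). The summed level of the neuronal list was 48467 to 71759 among CA1 libraries, 48209 to 102852 among CA3 libraries and 66197 to 94434 among DG libraries, and its part in the results was not tested.

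**Figure D2:**
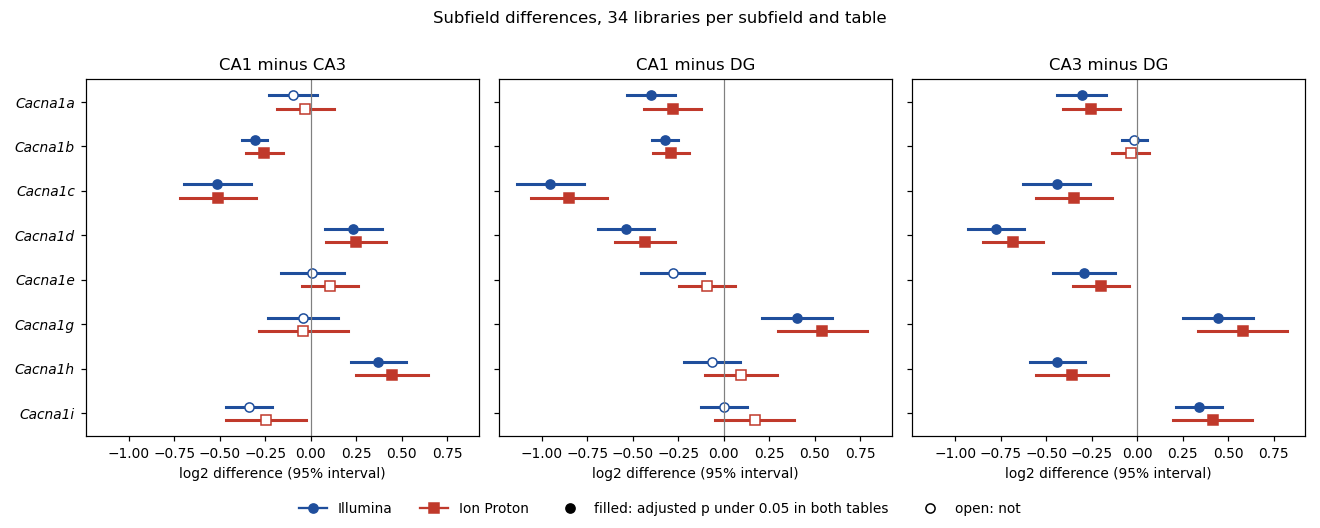
Log2 difference with its 95% interval for each gene and pair of subfields (34 libraries per subfield), circles for Illumina and squares for Ion Proton, filled where the gene was called in both. Cacna1c, at -0.95 for CA1 minus DG, lies farthest from 0, and Cacna1g is the one gene called higher in both CA1 and CA3 than in DG.

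The L-type genes are shown first, with the bases before their annotated starts, since they had the widest differences between subfields and their upstream bases differ in kind. Sequences are from RefSeq on the GRCr8 build, 250 bases before the start of the gene model, 5′ to 3′ on the minus strand for both genes, and 5 of the 8 genes were matched (Cacna1g, Cacna1h and Cacna1i were not). Capitals mark GC boxes (GGGCGG) and cAMP response element half-sites (TGACG), searched on both strands and counted also where copies overlap. Among 33469 rat promoters of the same length, 30.5% held a GC box and 18.2% a half-site. The start of a gene model need not be the one used in the hippocampus.
Cacna1c, chr4:154051749-154051998: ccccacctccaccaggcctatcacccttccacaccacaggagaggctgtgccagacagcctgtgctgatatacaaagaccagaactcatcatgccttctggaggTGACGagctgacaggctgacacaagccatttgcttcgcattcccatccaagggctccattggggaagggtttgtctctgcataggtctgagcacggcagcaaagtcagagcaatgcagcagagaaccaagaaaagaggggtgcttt
Cacna1d, chr16:5527550-5527799: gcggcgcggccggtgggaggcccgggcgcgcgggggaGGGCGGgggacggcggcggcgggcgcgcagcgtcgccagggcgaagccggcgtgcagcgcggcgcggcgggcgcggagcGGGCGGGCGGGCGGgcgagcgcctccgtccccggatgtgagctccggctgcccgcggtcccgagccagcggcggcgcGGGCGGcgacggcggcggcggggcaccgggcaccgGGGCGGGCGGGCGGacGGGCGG
The stretch before Cacna1c held 3 CpG and 54.4% GC, with 0 GC boxes and 1 half-site. That before Cacna1d held 56 CpG and 88.8% GC, with 9 GC boxes and 0 half-sites, where the median promoter had 5 CpG and 51.2% GC. Those before Cacna1a, Cacna1b and Cacna1e held 34, 28 and 6 CpG. These matches describe letters and say nothing of a factor bound there.

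Cacna1c (ENSRNOG00000007090, chromosome 4) showed a gradient from CA1 through CA3 to DG. Its normalised read count ran from 275 to 981 (median 648) among CA1 libraries, 365 to 2386 (median 944) among CA3 libraries and 676 to 1497 (median 1229) among DG libraries. Every CA1 library lay below the DG median, and CA1 was below DG in 32 of 34 rats. The mean was 634 ± 150 (SD, n = 34) in CA1 and 1209 ± 197 (SD, n = 34) in DG, so that DG had 1.91 times the CA1 level in the Illumina table and 1.78 times in the Ion Proton table. On the log2 scale the difference of CA1 from DG was -0.95 (SE 0.0928, limma adjusted p = 1.95e-15) and that of CA1 from CA3 -0.51 (SE 0.0928, adjusted p = 3.58e-06). CA3 was lower than DG by a log2 difference of -0.44 (adjusted p = 3.01e-05), so that over all rats both neighbours in the order differed. Within neither number series were both called: CA3 minus DG was -0.32 in the rats below 9000 (Ion Proton -0.17, adjusted p = 0.240), and CA1 minus CA3 was -0.28 in those from 9000 up (adjusted p = 0.245). Of all genes tested, 97.6% had a smaller absolute difference between CA1 and DG.

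Cacna1d (ENSRNOG00000013147, chromosome 16) was likewise highest in DG, but over all rats it was lowest in CA3. Its level ran from 666 to 1659 (median 1209) among CA1 libraries, 778 to 2514 (median 965) among CA3 libraries and 900 to 2743 (median 1722) among DG libraries. DG had 1.71 times the mean of CA3 and 1.48 times that of CA1, and it was the higher one in 30 of 34 rats in both cases. The log2 difference was -0.77 for CA3 minus DG (SE 0.0781, adjusted p = 8.86e-15) and -0.54 for CA1 minus DG (adjusted p = 6.79e-09). CA1 exceeded CA3 by 0.24 (SE 0.0781, adjusted p = 0.0124 for Illumina and 0.0277 for Ion Proton) in 27 of 34 rats. In the WT table it was 0.15 (adjusted p = 0.136). The call was also lost when either rat R1922 or rat R2238 was left out. The difference was 0.45 in the rats numbered below 9000. In those from 9000 up it was -0.0017 (limma adjusted p = 0.995, Ion Proton 0.06, adjusted p = 0.813), so the order of CA1 and CA3 rested on 1 series. CA1 minus DG was -0.34 from 9000 up, and -0.23 in the Ion Proton table (limma adjusted p = 0.0865), so it was not called there. The highest CA3 value of Cacna1c, Cacna1d, Cacna1e and Cacna1h (2386, 2514, 6225 and 2832) was in each case the library of impaired rat R9875, which had the lowest depth of all Illumina libraries (3.25 M) and CA1-like marker scores. In the Ion Proton table the same rat had 1124, 1574, 2858 and 1853 for these genes.

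Of the genes for presynaptic channels, Cacna1b (ENSRNOG00000004560, chromosome 3; N-type) had the tightest levels and was low in CA1 alone. It ran from 1613 to 2675 (median 2144) among CA1 libraries, 2138 to 3253 (median 2605) among CA3 libraries and 2227 to 3008 (median 2613) among DG libraries. CA1 was the lower one in 31 of 34 rats against CA3 and in 33 of 34 against DG. The log2 difference was -0.31 for CA1 minus CA3 (SE 0.0352, adjusted p = 6.09e-12) and -0.32 for CA1 minus DG (SE 0.0352, adjusted p = 2.77e-13). CA3 and DG did not differ past the threshold, with an interval from -0.09 to 0.05.

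Cacna1a (ENSRNOG00000046731, chromosome 19; P/Q-type) was higher in DG than in either CA field. It ran from 1673 to 3414 (median 2805) among CA1 libraries, 1722 to 4699 (median 2798) among CA3 libraries and 2891 to 5585 (median 3503) among DG libraries. All 34 CA1 libraries lay below the DG median. The log2 difference was -0.40 for CA1 minus DG (SE 0.0666, adjusted p = 2.94e-07) and -0.31 for CA3 minus DG (adjusted p = 5.33e-05), while CA1 minus CA3 gave -0.09 with an interval from -0.23 to 0.04. This value joined -0.33 in the rats numbered below 9000 (adjusted p = 0.000733) and 0.18 in those from 9000 up (adjusted p = 0.123). In the Ion Proton table the latter was 0.34 (limma adjusted p = 0.00395). Within neither number series were both differences from DG called. CA3 minus DG was -0.16 in the rats below 9000 (limma adjusted p = 0.0961, Ion Proton -0.13, adjusted p = 0.434). CA1 minus DG was -0.29 in those from 9000 up, but -0.05 in the Ion Proton table (limma adjusted p = 0.646).

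Cacna1e (ENSRNOG00000002863, chromosome 13; R-type) had medians of 2779 (CA1), 2582 (CA3) and 3211 (DG), with ranges that overlapped widely (970 to 4221, 1344 to 6225 and 1878 to 4278). It was lower in CA3 than in DG by a log2 difference of -0.29 (adjusted p = 0.00279 for Illumina and 0.0392 for Ion Proton). This call was lost when any 1 of 13 rats was left out, with no floor on low values and without the 7 deeply sequenced rats. It was also lost in the WT table (-0.11, adjusted p = 0.0846) and in the rats numbered below 9000 (-0.23, Ion Proton -0.07, limma adjusted p = 0.696). For CA1 minus DG the Illumina difference was -0.28 (adjusted p = 0.00406) and the Ion Proton difference -0.09 (adjusted p = 0.381), so it was not called. CA1 minus CA3 was 0.01 with an interval from -0.16 to 0.18.

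The T-type genes each had their own order. Cacna1g (ENSRNOG00000002981, chromosome 10) was lowest in DG, running from 547 to 1754 (median 1268) among CA1 libraries, 553 to 1941 (median 1277) among CA3 libraries and 595 to 1700 (median 919) among DG libraries. CA1 was above DG in 28 of 34 rats and CA3 above DG in 27. The log2 differences were 0.40 for CA1 minus DG (SE 0.0969, adjusted p = 0.000257) and 0.44 for CA3 minus DG (SE 0.0969, adjusted p = 5.48e-05). The latter was 0.08 in the rats numbered below 9000 (adjusted p = 0.572) and 0.86 in those from 9000 up (adjusted p = 4.36e-07). Over all rats CA1 and CA3 gave a difference of -0.04 with an interval from -0.23 to 0.15, which joined opposite values in the number series described below.

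Cacna1h (ENSRNOG00000033893, chromosome 10) was low in CA3, running from 931 to 2832 there (median 1841), from 1033 to 3185 in CA1 (median 2474) and from 1389 to 4169 in DG (median 2535). CA1 was above CA3 in 29 of 34 rats. The log2 difference was 0.37 for CA1 minus CA3 (SE 0.0766, adjusted p = 4.24e-05) and -0.44 for CA3 minus DG (adjusted p = 7.54e-07), and CA1 minus DG was -0.06 with an interval from -0.22 to 0.09. In the WT table CA1 minus CA3 was 0.20 and missed the threshold (adjusted p = 0.0627). In the rats numbered below 9000, CA1 minus CA3 was 0.49 and CA3 minus DG -0.62, both called. In those from 9000 up neither was called. There CA1 minus CA3 was 0.24 (limma adjusted p = 0.249, Ion Proton 0.42, adjusted p = 0.0527). CA3 minus DG was -0.23 (limma adjusted p = 0.164, Ion Proton -0.07, adjusted p = 0.707).

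Cacna1i (ENSRNOG00000029914, chromosome 7) was the reverse, highest in CA3. It ran from 718 to 2110 in CA3 (median 1534), from 707 to 1435 in CA1 (median 1188) and from 776 to 1549 in DG (median 1170). CA3 exceeded DG in 28 of 34 rats, by a log2 difference of 0.34 (SE 0.0641, adjusted p = 4.04e-06). CA1 minus CA3 was -0.34 in the Illumina table (adjusted p = 9.14e-06) and -0.25 in the Ion Proton table (adjusted p = 0.123), and was not called, although all 34 CA1 libraries of the Illumina table lay below the CA3 median. CA1 and DG did not differ past the threshold, and the interval of their log2 difference ran from -0.13 to 0.13.

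**Figure D3:**
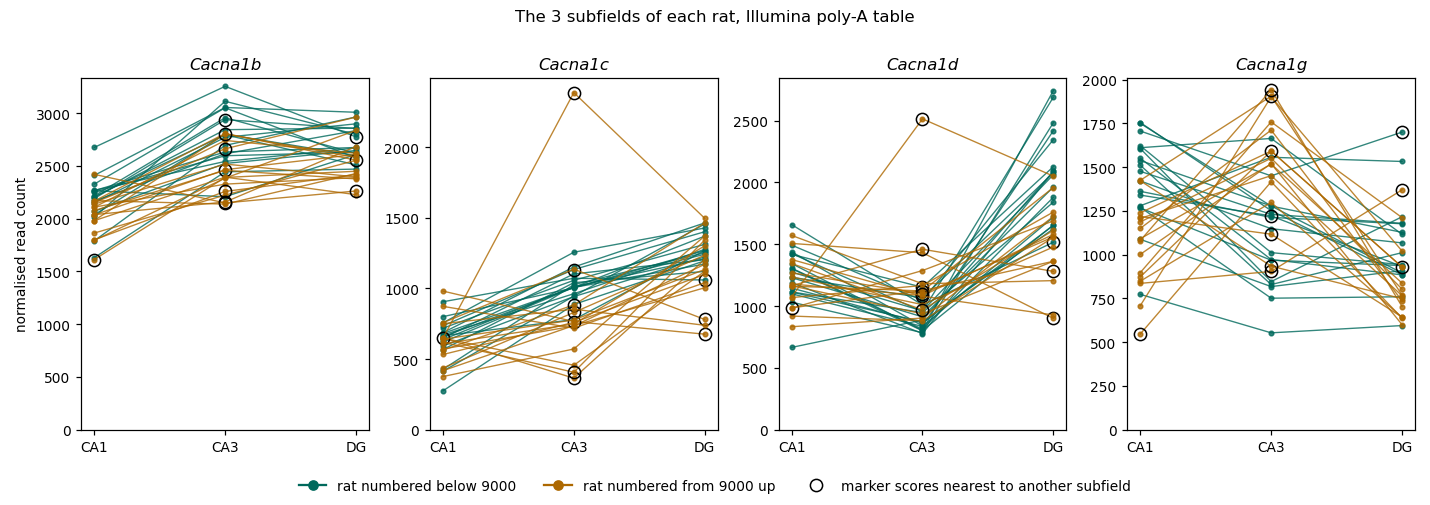
Normalised read counts of 4 genes in the 3 subfields of each rat (Illumina), 1 line per rat, coloured by number series, with black rings around libraries whose markers lay nearest to another subfield. Cacna1b and Cacna1c rise from CA1 to DG in nearly every rat of both series (33 and 32 of 34), while Cacna1g runs in opposite directions between CA1 and CA3 in the 2 series.

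Comparisons with CA3 depended on the number series. Within the 18 rats numbered below 9000, 6 of 8 genes were called for CA1 minus CA3 (all but Cacna1e and Cacna1g, with 21.4% of all genes), and within the 16 rats numbered from 9000 up 0 of 8 (3.88% of all genes; by limma, Illumina alone had an adjusted p under 0.05 for Cacna1b, at -0.26, and Cacna1g, at -0.53, and Ion Proton alone for Cacna1a, at 0.34, and Cacna1e, at 0.25). For CA1 minus DG, the counts were 5 of 8 (15.4% of all genes) and 3 of 8 (20.5%), and Cacna1b, Cacna1c and Cacna1g were called in both. For CA3 minus DG, 3 of 8 (22.9%) and 6 of 8 (21.6%) were called, with Cacna1d and Cacna1i in both. Cacna1c gave a log2 difference for CA1 minus DG of -1.04 in the rats below 9000 and -0.86 in those from 9000 up, and Cacna1b gave -0.33 and -0.32.

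The difference between the series was then tested itself, in 1 fit with an interaction of subfield and series, a test chosen after the within-series values had been seen. CA1 minus CA3 differed between the series for Cacna1a, Cacna1c and Cacna1g (13.7% of all genes did), and CA3 minus DG for Cacna1d, Cacna1g and Cacna1h (16.8%). CA1 minus DG differed for 0 of 8 (0.106% of all genes), where the unadjusted limma p was under 0.05 for Cacna1d in the Illumina table (p = 0.00502, adjusted p = 0.134) and for Cacna1a, Cacna1d and Cacna1h in the Ion Proton table. Cacna1g showed the widest gap. In rats below 9000 its CA1 minus CA3 difference was 0.40, and in rats from 9000 up it was -0.53 (limma adjusted p of the interaction = 2.68e-06). Its median in CA3 was 1180 in the first series and 1535 in the second, and its median in CA1 was 1493 and 1086. Cacna1d was lower in CA3 than in DG by a log2 difference of -1.17 in the first series and -0.33 in the second (interaction adjusted p = 1.68e-07).

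Marker lists moved with the series in all 3 subfields. The summed level of the CA3 pyramidal list ran from 19015 to 24237 in the first series (median 20327) and from 3667 to 19384 in the second (median 12834). That of the CA1 list in these CA3 libraries had medians of 3691 and 7142, and that of the neuronal list 91977 and 65184. The oligodendrocyte list was lower in the second series in CA3 (medians 157223 and 111604) and higher in CA1 (106330 and 183920) and DG (54488 and 117128). The astrocyte list was higher in the second series in CA1 (51820 and 65523), CA3 (50041 and 62440) and DG (48424 and 56324). The part of these in the gene differences was not tested. Without the 11 libraries that went against their label, 5 of 8 genes were called for CA1 minus CA3 (17.7% of all genes), 5 of 8 for CA1 minus DG (28.4%) and 7 of 8 for CA3 minus DG (29.3%), with Cacna1i the gene gained in the first. Without these libraries the interaction remained past the threshold in both tables for Cacna1a and Cacna1g in CA1 minus CA3 and for Cacna1d and Cacna1g in CA3 minus DG. The gap for Cacna1c was then -0.45 in the Illumina table (adjusted p = 0.0130) and -0.47 in the Ion Proton table (adjusted p = 0.110), and that for Cacna1h was -0.26 (adjusted p = 0.163) and -0.53 (adjusted p = 0.0600).

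**Figure D4:**
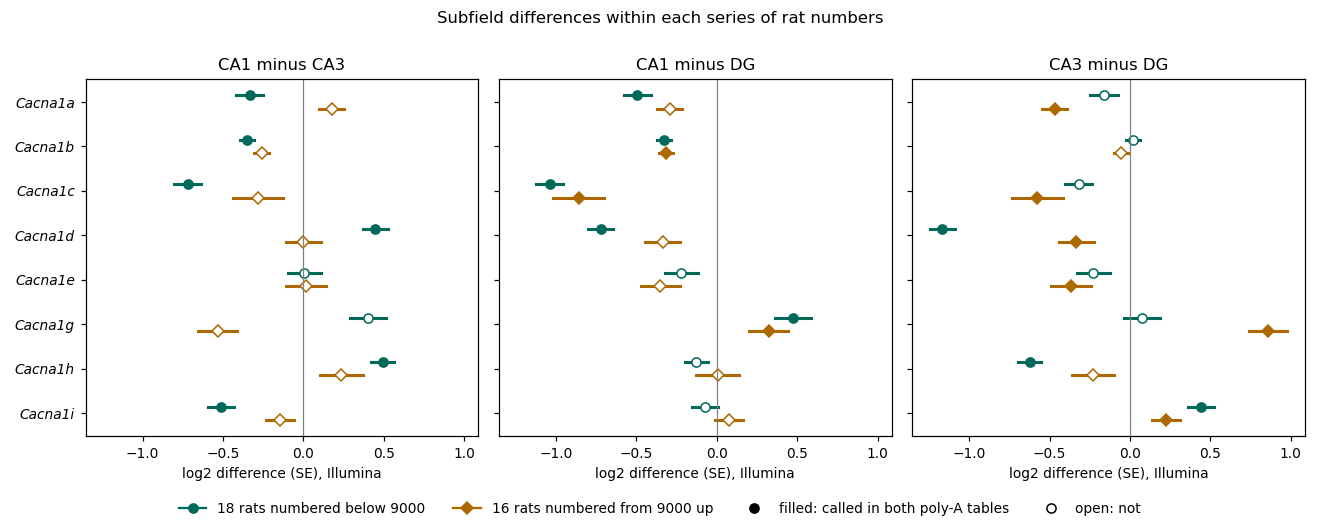
Log2 differences (± SE, Illumina) between subfields within the 18 rats numbered below 9000 and the 16 numbered from 9000 up, filled where called in both poly-A tables. The series lie close together for Cacna1b in CA1 minus DG (-0.33 and -0.32) and on opposite sides of 0 for Cacna1g in CA1 minus CA3 (0.40 and -0.53).

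Alpha-1 subunits work with auxiliary beta and alpha-2-delta subunits, which bring them to the membrane, and with regulators that bind them. Of 14 genes listed as auxiliary subunits and relatives, 9 passed the floor. Of these, 2 of 9 were called for CA1 minus CA3 (1 higher; 14.1% of all genes were called), 3 of 9 for CA1 minus DG (1 higher; 26.4%) and 5 of 9 for CA3 minus DG (2 higher; 27.9%). Cacna2d2, an alpha-2-delta subunit, was higher in CA1 than in DG by a log2 difference of 0.88 (limma adjusted p = 5.17e-11) and higher in CA3 than in DG by 0.71 (limma adjusted p = 3.68e-08), as was Cacna1g. Cachd1, an alpha-2-delta-like protein that can act on T-type channels, was lower in CA1 than in CA3 by a log2 difference of -0.65 (limma adjusted p = 4.43e-12). The beta subunit gene Cacnb2 had values of -0.06, -0.07 and -0.01 in the 3 comparisons, none past the threshold.

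Regulators were drawn from 21 genes with 25 rows, of which 24 rows passed the floor. For CA1 minus CA3, 12 of 24 were called (5 higher), for CA1 minus DG 12 of 24 (4 higher) and for CA3 minus DG 5 of 24 (2 higher), against the same shares of all genes (14.1%, 26.4% and 27.9%). Stac, an adaptor that binds L-type channels, was higher in CA1 than in CA3 by a log2 difference of 1.47 and higher than in DG by 2.08 (limma adjusted p = 2.12e-09 and 1.08e-15), at low levels (mean of 45.5 over all libraries). Its relative Stac2 was lower in DG than in CA1 (0.77) and in CA3 (0.68). Rimbp2, which tethers presynaptic calcium channels at release sites, was lower in CA3 than in DG by a log2 difference of -1.04 (limma adjusted p = 4.24e-19). Stx1a, the release protein syntaxin that binds N-type and P/Q-type channels, was lower in CA1 than in CA3 by -0.47 (limma adjusted p = 1.26e-07).

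For each alpha-1 gene, the non-member genes with the most similar log2 values over all Illumina libraries are given as a description. These libraries share rats, subfields, series and depth, so that such values hold no test. Cacna1d went with Eml5 (Pearson correlation 0.95 in Illumina and 0.87 in Ion Proton) and Unc79 (0.93 and 0.73). Cacna1c went with Ryr2, the calcium release channel of the endoplasmic reticulum (0.93 and 0.83), and Rasgrf2, an exchange factor for Ras (0.91 and 0.84). Cacna1g went with Tox2 (0.89 and 0.89) and Usp35 (0.87 and 0.85), both also lowest in DG by their means. For Cacna1e the top genes were Scn8a, a sodium channel subunit (0.90 and 0.84), and Braf (0.89 and 0.37), and for Cacna1a they were B3gat1 (0.87 and 0.88) and Ppp2r2c (0.86 and 0.77). Cacna1b went with Tnpo2 (0.89 and 0.56) and Ptprs (0.88 and 0.75), and Cacna1h with Shisa7 (0.90 and 0.51) and Jph4 (0.89 and 0.62). Cacna1i had the loosest partners in the Illumina table, Kif21b (0.74 and 0.84) and Cntnap1 (0.71 and 0.81).

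Age was examined by comparing the 24 aged with the 10 young rats within each subfield. The thresholds of the study, an unadjusted p under 0.01 in the Illumina table and a one-sided Ion Proton p under 0.05 for that direction, were met by 0 of 8 genes in each subfield (CA1, CA3, DG), against 0.832%, 0.393% and 1.07% of all genes. By limma, 0 of 8 also had an unadjusted p under 0.05 in any subfield in the Illumina table (6.15%, 3.31% and 5.2% of all genes), and edgeR and DESeq2 on the recovered reads called 0 of 8 as well. In CA1 all 8 differences were below 0, from -0.18 for Cacna1h to -0.02 for Cacna1g, with a median of -0.11 (median of all genes within 0.01 of 0). The 8 genes are measured in the same libraries, so this is 1 observation on these rats, and the smallest p in the Illumina table was 0.113 (limma adjusted p = 0.911, Cacna1a). Of these differences, 4 were above 0 in the WT table and 1, Cacna1g, in the Ion Proton table (0.09). In the Ion Proton table Cacna1b was lower in aged CA1, at 1842 ± 232 (SD, n = 24) against 2108 ± 202 in the 10 young rats, and 22 of 24 aged libraries lay below the young median. Its log2 difference there was -0.20 (limma p = 0.0101, adjusted p = 0.934), and in the Illumina table it was -0.08 (limma p = 0.158, adjusted p = 0.942), so it was not called. In CA3 the differences ran from -0.08 to 0.17 and in DG from -0.07 to 0.07.

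The L-type genes were not distinguishable between ages in CA1. Cacna1c ran from 563 to 800 in young CA1 (median 639) and from 275 to 981 in aged CA1 (median 649), and the 95% interval of the log2 difference, -0.14, was -0.42 to 0.13. Cacna1d ran from 1145 to 1376 in young rats (median 1252) and from 666 to 1659 in aged rats (median 1164), with a difference of -0.10 and an interval from -0.30 to 0.09. The young range lay inside the aged range for both genes. Over the 24 age tests of the Illumina table, interval bounds reached from -0.42 to 0.45 on the log2 scale.

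Memory was examined by comparing the 12 impaired with the 12 unimpaired aged rats. Again 0 of 8 genes met the thresholds in CA1, CA3 and DG (0.62%, 0.0211% and 0.121% of all genes did), and no gene of the whole table had an adjusted p under 0.05 in any subfield by limma. An unadjusted p under 0.05 in the Illumina table was found for 2 of 8 in CA1 (5.71% of all genes), 1 of 8 in CA3 (1.4%) and 0 of 8 in DG (3.85%). The T-type gene Cacna1i had the smallest p. In CA1 its normalised read count ran from 1105 to 1435 in unimpaired rats (median 1265), from 707 to 1283 in impaired rats (median 1129) and from 845 to 1355 in young rats (median 1252). The groups overlapped, yet 5 of 12 impaired rats lay below all unimpaired rats and 11 of 12 below their median. The log2 difference was -0.26 (SE 0.0744, interval -0.42 to -0.11, limma p = 0.00147 and adjusted p = 0.523), and in the Ion Proton table it was -0.17 with a one-sided limma p of 0.117, so it failed both the retest and the correction. It was -0.28 in the rats numbered below 9000 and -0.23 in those from 9000 up. In the same comparison the median log2 difference was -0.28 for the CA3 pyramidal list (4 of 7 below 0), 0.31 for the dentate list (5 of 6 above 0) and -0.13 for the oligodendrocyte list (6 of 6 below 0), with 0 called in each. The summed CA3 list ran from 4581 to 11041 in unimpaired and from 3108 to 9071 in impaired rats, and the part of these lists in the Cacna1i value was not tested. Against young rats, impaired rats gave a Cacna1i difference of -0.17 and unimpaired rats one of 0.10, and both values share the young libraries.

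Cacna1a, the other gene with an unadjusted p under 0.05 in CA1, ran from 2395 to 3414 in unimpaired rats (median 2825) and from 1673 to 3370 in impaired rats (median 2591), a log2 difference of -0.18 (limma p = 0.0342, adjusted p = 0.848), and -0.10 in the Ion Proton table. It was -0.32 in the rats numbered below 9000 and -0.02 in those from 9000 up. In CA3, Cacna1c ran from 365 to 1134 in unimpaired rats (median 856) and from 719 to 2386 in impaired rats (median 1007). Its difference was 0.40 (SE 0.185, limma p = 0.0411, adjusted p = 1.00 when rounded) and 0.44 in the Ion Proton table. It rested on 1 number series: -0.02 in the rats numbered below 9000 and 0.82 in those from 9000 up, and it fell to 0.24 (limma p = 0.111) without the libraries that went against their label. The effects of age and of memory class did not differ between subfields for any of the 8 genes past an adjusted p of 0.05. The smallest p of these tests was that of the Cacna1i memory difference in CA1 minus that in CA3, -0.50 (limma p = 0.00100, adjusted p = 0.907), and -0.43 in the Ion Proton table (p = 0.111).

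**Figure D5:**
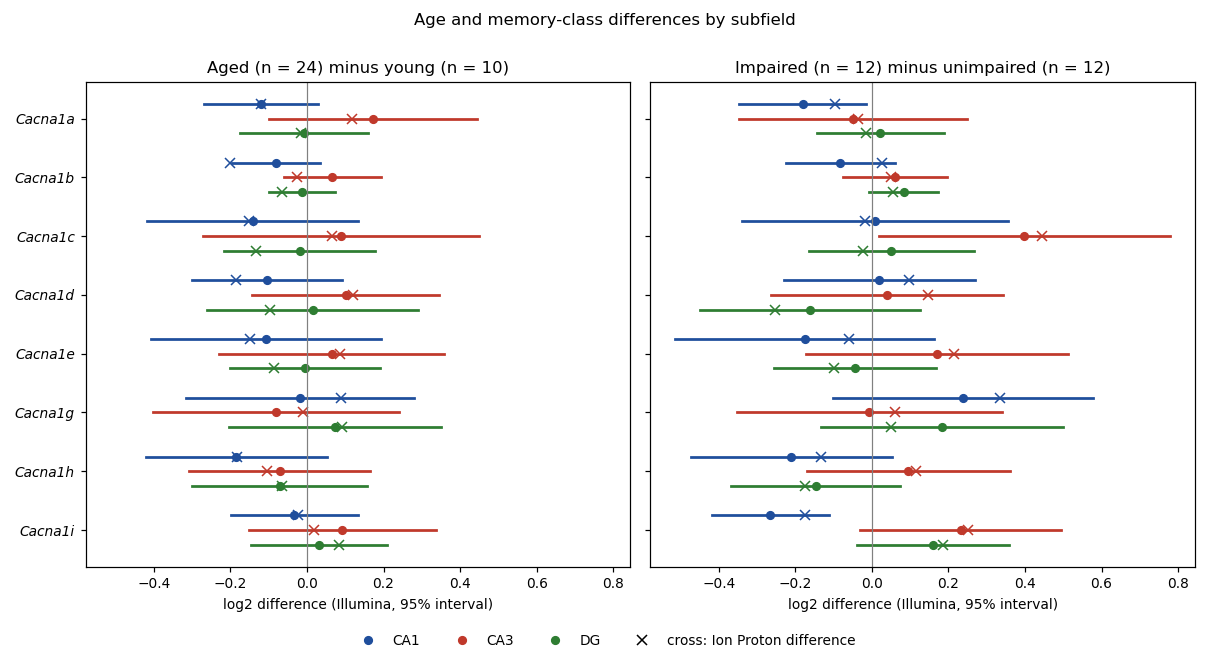
Log2 differences for age (24 aged and 10 young rats) and memory class (12 impaired and 12 unimpaired rats) in each subfield, with 95% intervals from the Illumina table and crosses for the Ion Proton table. Intervals span 0 for all genes in the age panel, and in the memory panel they do not for Cacna1i and Cacna1a in CA1 and Cacna1c in CA3.

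Among the listed partners, Cacnb2 and the small GTPase Rem2, which restrains high-voltage-activated channels through the beta subunit, met the thresholds for memory in CA1 (1 of 9 auxiliary genes and 1 of 24 regulator rows, against 0.62% of all genes). The study had already reported both genes for memory class in CA1 from the same RNA. The lists were chosen with earlier results known, so these counts are no independent evidence. Cacnb2 was lower in impaired rats by a log2 difference of -0.22 (limma p = 0.00557, adjusted p = 0.600; -0.23 in the Ion Proton table), and Rem2 by -0.66 (limma p = 0.00149, adjusted p = 0.523; -0.58). For age, 0 auxiliary genes and 1 of 24 regulator rows met them (0.393% of all genes in CA3), the release-site protein Rims2 in CA3 at 0.23 (limma p = 0.00933, adjusted p = 0.999). None of these held after correction over all genes.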

How the data were processed

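Poly-A RNA of 34 rats in 3 subfields was sequenced on Illumina and on Ion Proton instruments from the same RNA, so that the second table bears on technical error. Per the paper's methods and the labels, the authors aligned Illumina reads (CutAdapt 1.8.3, STAR 2.5) and Ion Proton reads (TopHat2, Bowtie2) to rn5, counted genes with featureCounts 1.4.4 and divided counts by DESeq2 size factors. Versions are those of the submitters' processing notes, which give DESeq2 1.16.1, and the paper states another version of DESeq2. The deposited values are signal, gene counts divided by a size factor, each table normalised alone. Divided by the value of 1 read, estimated for each library from its low values, 100% of the values above 0 were whole within a tolerance of 0.01, and these whole numbers are the recovered reads. A further table (WT), whose library type is not given in the sources used here, served as an alternative only. Whether counting used strand was not clear, so reads of overlapping genes may be shared.

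Groups were taken from the labels. Values were tested as log2(value + 1) with limma 3.58.1 (trend) in R 4.3.3, over genes with a mean of at least 10, with Benjamini-Hochberg adjustment; fold changes are on that scale. Subfields were compared over 34 libraries each, and age and memory class within each subfield. The replicate number is the rat, so it pairs libraries across subfields, and the consensus correlation within rats was 0.149 (Illumina) and 0.0891 (Ion Proton). edgeR 4.0.16 and DESeq2 1.42.0 on the recovered reads were alternatives. Scripts were tested on simulated data. Named genes were the 8 members, the called list genes with the largest differences and the most similar genes. The members and lists were chosen with earlier results of these data known.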

Additional observations from a re-analysis of the deposited data

Results flagged for a closer look

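Over 24 groups of a gene, subfield and class with 10 or fewer rats, 3 values in young rats stood apart from the rest of their group by Dixon's criterion, which chance meets in about 1 in 20 groups. They were the highest Cacna1a value in DG (5585 in rat R2221, median 3351), the lowest Cacna1c value in DG (739 in rat R9881, median 1239) and the lowest Cacna1h value in CA1 (1590 in rat R9876, median 2700).

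A difference between subfields that itself differed between the rats numbered below 9000 and those from 9000 up was found 6 times (limma interaction, adjusted p under 0.05 in both poly-A tables). For CA1 minus CA3, the first series minus the second was -0.51 for Cacna1a, -0.44 for Cacna1c and 0.93 for Cacna1g on the log2 scale. For CA3 minus DG it was -0.83 for Cacna1d, -0.78 for Cacna1g and -0.39 for Cacna1h. Marker levels in all 3 subfields differed between the series too, and their part in these values was not tested.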

How the results depend on the processing

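Among the tests, only those of a difference between the number series were added after seeing the data. The members and lists had been chosen with earlier results of these data known. With the rat as a replicate block, the numbers of genes called were 4, 5 and 7 for CA1 minus CA3, CA1 minus DG and CA3 minus DG (15.8%, 28.8% and 30.3% of all genes), and the block changed no call. In the rats from 9000 up alone, the counts fell to 0 for CA1 minus CA3 and 3 for CA1 minus DG, and in those below 9000 alone to 3 for CA3 minus DG, with fewer rats in each; by limma the WT table alone gave 1 gene for memory in CA1, Cacna1h (adjusted p = 0.613; 1.48% of all genes passed there). edgeR gave 5, 5 and 7 (15.2%, 28.9% and 30.6% of all genes), and DESeq2 the same counts (16.2%, 29.8% and 31.7%). Leaving out 1 rat at a time gave 3 to 4, 5 to 5 and 6 to 7 genes (12.7 to 15.01%, 24.1 to 28.3% and 25.9 to 30.3% of all genes). Signs turned, also for the called Cacna1d difference in CA1 minus CA3 and for the Cacna1c memory difference in CA3, in these cases among the subfield differences and the named memory differences: in rats from 9000 up, Cacna1a (0.18) and Cacna1d (-0.0017) in CA1 minus CA3, and Cacna1h (0.0056) and Cacna1i (0.078) in CA1 minus DG; in rats below 9000, Cacna1g (0.40) in CA1 minus CA3, Cacna1b (0.020) in CA3 minus DG and Cacna1c (-0.020) for memory in CA3; without libraries against their label, Cacna1g (0.014) in CA1 minus CA3 and Cacna1i (0.013) in CA1 minus DG. They also turned under quantile normalisation for Cacna1i in CA1 minus DG (0.028) and Cacna1b in CA3 minus DG (0.016), in the WT table for the same genes (0.075 and 0.074), and in the Ion Proton table for Cacna1h (0.093) and Cacna1i (0.17) in CA1 minus DG. Over rats left out, Cacna1e in CA1 minus CA3 ran from -0.0059 to 0.059, Cacna1g from -0.070 to 0.0011, and Cacna1i in CA1 minus DG from -0.025 to 0.026. None of the 8 age differences met the thresholds in any setting, and over all settings they lay on both sides of 0, from -0.26 to 0.14 in CA1, -0.29 to 0.26 in CA3 and -0.16 to 0.12 in DG. The causes were not tested.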

Other observations

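Among the alpha-1 genes themselves, over libraries that share rats, subfields and depth, Cacna1b and Cacna1c had the highest Pearson correlation of log2 values (0.76 in the Illumina and 0.74 in the Ion Proton table). Cacna1a and Cacna1e had 0.71 and 0.59, and Cacna1d and Cacna1h 0.69 and 0.56. Cacna1g and Cacna1i, the second highest pair in the Ion Proton table at 0.64, had 0.37 in the Illumina table. Cacna1g ran opposite to Cacna1a (-0.55 and -0.12) and to Cacna1c (-0.45 and -0.27).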
